A study of Mus musculus with 6 samples.

Results

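Laminins, collagens and integrins were examined as a set of 79 protein-coding genes, 10 laminin, 44 collagen and 25 integrin genes, among 53379 genes counted by RNA-seq, of which 21865 were protein-coding. The genes were taken by symbol alone (Lama, Lamb and Lamc, Col with its chain number, Itga and Itgb), whatever their level. The cells were Min6, which derive from a mouse insulinoma and stand in for pancreatic beta cells, grown in DMEM with high glucose and taken at passage 28. They had been transduced with the lentiCRISPR v2 vector, which carries Cas9 and a guide RNA (gRNA). The gRNA was directed at JunD, the gene of an AP-1 transcription factor, in 3 libraries, and at the Rosa26 locus as negative control in the other 3. Both groups carried the vector, both had been under glucolipotoxic conditions (high glucose and fatty acid) for 30 hours, and both were harvested 8 days after transduction. The labels do not say whether the cells were a clone or a mixed population, nor whether each replicate was its own transduction. The p-values thus rest on a spread between libraries that could be technical.

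Laminins are secreted heterotrimers of an alpha, a beta and a gamma chain that polymerise into the sheet of the basement membrane, to which type IV collagen adds a second network. Integrins are cell-surface receptors, each an alpha chain paired with a beta chain, that bind laminin, collagen or proteins with an Arg-Gly-Asp (RGD) motif and link them to the actin cytoskeleton. In the islet, most basement membrane is laid down by endothelial cells of the capillaries, and beta cells bind it through integrins of the beta 1 chain.

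Library totals ran from 41071566 to 50024931 counts. Replicate 1 of the Rosa26 gRNA stood apart from the other 5 libraries. On the first principal component of the genes that passed the count filter, which held 45.5% of the variance, it lay at -63.1 and the others between 6.38 and 22.5. Counts of calls are therefore given both for all 6 libraries and for the 5 libraries without it. Jund read 39.3, 34.5 and 30.4 CPM (the count scaled to the library's total) in Rosa26 gRNA replicates 1 to 3 and 22.6, 25.1 and 26.9 CPM in the JunD gRNA replicates, with no overlap. Its log2 fold change of JunD over Rosa26 gRNA was -0.38 ± 0.08 (SE, 5 libraries; edgeR quasi-likelihood test with Benjamini-Hochberg adjustment over all genes, adjusted p = 0.00773) and -0.47 ± 0.11 (6 libraries, adjusted p = 0.417). The 9 beta-cell markers looked up summed to 42405 to 77285 CPM in the Rosa26 gRNA libraries and 75748 to 81551 CPM in the JunD gRNA libraries, with Ins2 the highest. The low end was Rosa26 gRNA replicate 1. Ins2 read 21947 CPM in it, 45933 and 49125 CPM in its replicates, and 49898, 49893 and 53634 CPM with the JunD gRNA. Markers of fibroblasts or stellate cells and of endothelial cells were low. Of 9 fibroblast or stellate cell markers, Lum, Acta2 and Postn had no count in any library and the sum was at most 1.55 CPM. The 8 endothelial markers summed to 4.47 to 5.64 CPM. The 7 duct markers were not low, at 699 to 882 CPM with the Rosa26 gRNA and 806 to 836 CPM with the JunD gRNA, mostly Krt7 and Spp1.

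Upstream sequence is shown for genes whose transcripts changed on the 5 libraries and whose promoter was in the reference table: Itga2 (the integrin alpha 2 chain), Itgb1 (the integrin beta 1 chain) and Col6a3 (the alpha 3 chain of type VI collagen). Each is the 250 bases before the start site on the gene's own strand, 5′ to 3′, from RefSeq on GRCm38.p6. Capitals mark a match to any of 3 motifs looked for on both strands: the AP-1 site TGANTCA, the cyclic AMP response element TGACGTCA, and the GC box GGGCGG.
Itga2 (chr13:114932101-114932350, minus strand): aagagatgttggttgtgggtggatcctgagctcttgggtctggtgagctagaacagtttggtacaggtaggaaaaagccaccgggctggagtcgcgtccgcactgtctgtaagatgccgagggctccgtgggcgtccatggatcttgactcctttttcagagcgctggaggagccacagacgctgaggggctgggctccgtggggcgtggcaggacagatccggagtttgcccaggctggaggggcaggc
Itgb1 (chr8:128685404-128685653, plus strand): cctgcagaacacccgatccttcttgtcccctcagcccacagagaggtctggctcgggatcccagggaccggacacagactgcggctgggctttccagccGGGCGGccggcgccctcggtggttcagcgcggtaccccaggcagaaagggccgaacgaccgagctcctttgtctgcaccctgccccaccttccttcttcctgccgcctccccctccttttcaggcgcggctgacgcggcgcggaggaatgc
Col6a3 (chr1:90843972-90844221, minus strand): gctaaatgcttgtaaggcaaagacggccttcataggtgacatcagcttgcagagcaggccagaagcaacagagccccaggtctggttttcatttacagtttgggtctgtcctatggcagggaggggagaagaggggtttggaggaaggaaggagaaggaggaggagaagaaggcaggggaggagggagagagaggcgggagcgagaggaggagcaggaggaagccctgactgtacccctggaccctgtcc
The sole match in these 3 windows was a GC box of Itgb1, at 151 to 146 bases before the start. Of the 79 genes, 57 had a promoter entry. The AP-1 letters were present for 2 of the 57, Col6a1 and Itgax, or 3.51%, against 7.82% of all 27025 genes with an entry. The GC box letters were present for 29 of the 57, or 50.9%, against 35.4% of all genes. The cyclic AMP response element was in none of the 57 and in 1.77% of all genes. A match describes letters in this window, and AP-1 binding was not measured here.

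The cells expressed few of the 79 genes at a high level. Level is given as CPM per kilobase of merged exon, the scale on which genes are compared with each other. Over the 6 libraries, 7 genes averaged 10 or more, 16 from 1 to 10, 19 from 0.1 to 1 and 37 under 0.1. Among the 37, Col3a1 had no count in any library, which allows up to 0.073 CPM in the shallowest library (3 counts, counting error only). In descending order the 7 highest were Itgb1, Col27a1, Itgb5, Itgav, Col6a6, Itga3 and Col9a2, so 4 were integrins, 3 were collagens and none was a laminin. Itgb1 ranked at 98.8% of all protein-coding genes and Col27a1 at 97.7%, whereas Lamc1, the highest laminin, ranked at 71.1%. In the JunD gRNA libraries Itgb1 (84.0 ± 4.5) and Col27a1 (63.0 ± 3.19, SD, n = 3 for both) were separated by more than their spread. Col27a1 lay above Itgb5 (41.6 ± 1.03), Itgb5 above Itgav (24.3 ± 1.11), Itgav above Col6a6 (18.3 ± 0.769), Col6a6 above Itga3 (14.8 ± 0.437) and Itga3 above Col9a2 (11.6 ± 0.401), each by more than these SDs.

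**Figure D1:**
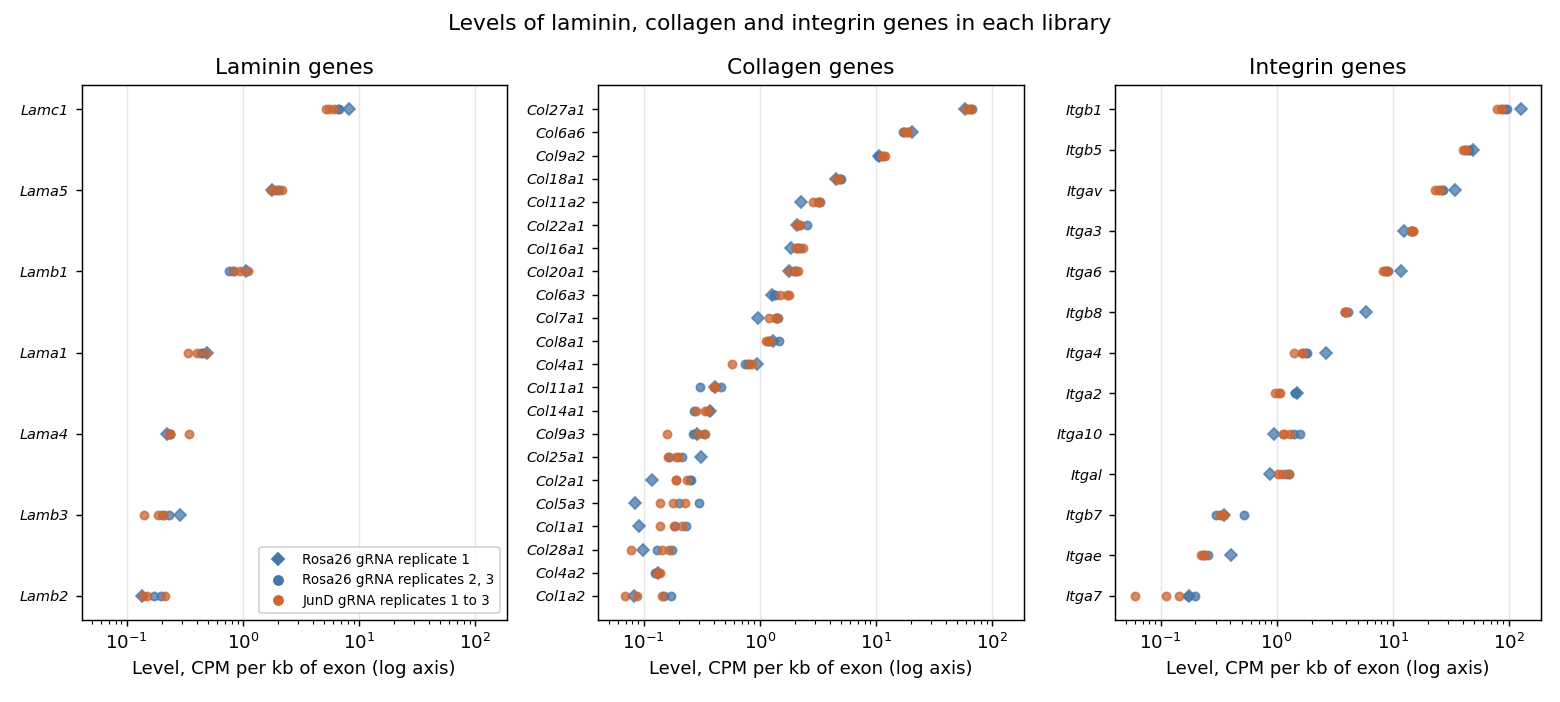
Levels in each library of the 42 genes with a mean of at least 0.1 CPM per kilobase of exon (log axis), by family, highest at the top. Diamonds are Rosa26 gRNA replicate 1, blue circles Rosa26 gRNA replicates 2 and 3, orange circles the 3 JunD gRNA libraries. Itgb1, Col27a1 and Itgb5 lie highest, Lamc1 lies highest among the laminins, and the blue and orange points of Itga2 do not overlap.

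Few of the genes changed in any of the 3 families, and the calls depended on the libraries used. With all 6 libraries, edgeR called none of the 54 genes tested at an adjusted p under 0.05, nor any of the 17767 genes of the series (0.0%). At an unadjusted p under 0.05 it gave 8 of the 54, 14.8% against 11.9% of all genes. DESeq2 called 1 on the 6 libraries, Itga2 (0.383% of all genes), limma-voom called 0 (0.0%), and edgeR on counts corrected for GC and length called 0 (0.129%). Without Rosa26 gRNA replicate 1, 4 of 59 were called, or 6.78%, against 2.86% of all 18296 genes tested. Itga2, Lamc1 and Itgb1 fell and Col6a3 rose. These 4 calls rest on 2 Rosa26 gRNA libraries, and the number called was 0 when Rosa26 gRNA replicate 2 or 3 was left out as well, and 2 when JunD gRNA replicate 2 was. On the same 5 libraries DESeq2 called 5 of the genes (3.33% of all genes), limma-voom 5 (3.21%) and edgeR on counts corrected for GC and length 4 (2.94%). Groups did not overlap for 18 of the 59, or 30.5%, against 33.0% of all genes, and over all 6 libraries for 10 of the 54, or 18.5%, against 24.4%. Below 0 lay 41 of the 59 log2 fold changes, or 69.5%, with a median of -0.11, against 50.8% of all genes with a median of 0.0. Over the 6 libraries 34 of 54 lay below 0, or 63.0%, with a median of -0.1, against 51.1% and -0.01. The 25 members left out of the 6-library test and the 20 left out of the other had too few counts.

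**Figure D2:**
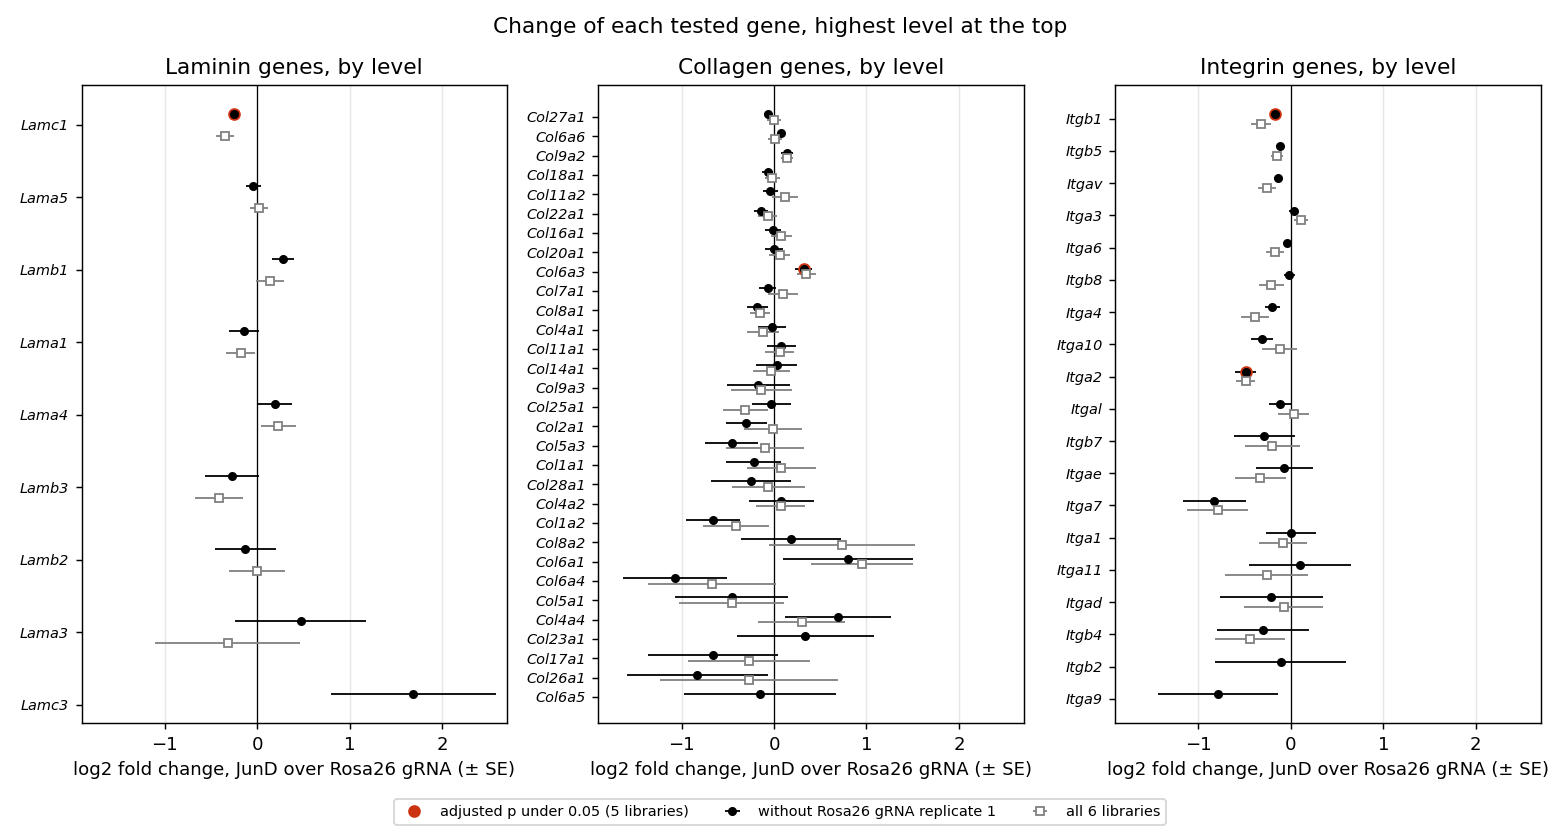
Log2 fold change of JunD over Rosa26 gRNA with its SE for the 59 genes tested, by family, highest level at the top. Black circles are the 5 libraries without Rosa26 gRNA replicate 1, open squares all 6 libraries, and red circles the genes with an adjusted p under 0.05 on the 5. Itga2 (-0.49), Lamc1 (-0.25) and Itgb1 (-0.17) are red below 0 and Col6a3 (0.32) above it, and errors widen toward the bottom, where levels are low.

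Among the laminins, Lamc1 fell with the JunD gRNA on the 5 libraries, while no alpha or beta chain passed the test. Lamc1 (ENSMUSG00000026478.14, chromosome 1, 153218922 to 153332786, minus strand; GENCODE M21, GRCm38), the gamma 1 chain shared by most laminins, read 68.3, 55.5 and 55 CPM with the Rosa26 gRNA and 50, 45.6 and 43.4 CPM with the JunD gRNA. The groups did not overlap, but the Rosa26 gRNA values held 1 high library, replicate 1. Without it the change was -0.25 ± 0.06 (adjusted p = 0.0273), and with it -0.35 ± 0.1 (adjusted p = 0.417). Lamc1 lost its call in 3 of the alternative settings on 5 libraries and kept it in 12, with values from -0.31 to -0.21. Lamc1 over Lama5 in CPM per kilobase was 4.59, 3.43 and 3.26 with the Rosa26 gRNA and 3.42, 2.91 and 2.43 with the JunD gRNA. These ratios overlapped by a small margin. Lamc3, another gamma chain, had at most 12 counts in any library.

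Among alpha chains Lama5, the chain of laminin-511 and laminin-521, had the highest level, 1.93 ± 0.123 CPM per kilobase with the Rosa26 gRNA and 1.94 ± 0.2 with the JunD gRNA (SD, n = 3). Its groups overlapped, with 20.5, 22.3 and 23.2 CPM against 20.1, 21.5 and 24.6 CPM. The log2 fold change of Lama5 was -0.04 ± 0.08 on 5 libraries and 0.02 ± 0.1 on 6, and its sign was not stable. Lamb1, the leading beta chain, read 10.5, 7.52 and 8.17 CPM against 9.28, 10.9 and 8.4 CPM. Replicate 1 was the highest Rosa26 gRNA library for Lamb1, and the change was 0.28 ± 0.12 without it (adjusted p = 0.225) and 0.14 ± 0.15 with it (adjusted p = 0.652). Lama1, the alpha chain of embryonic basement membranes, read 4.79, 4.44 and 4.2 CPM against 3.23, 4.63 and 3.87 CPM, with overlap and a change of -0.14 ± 0.16 on 5 libraries (adjusted p = 0.751) and -0.18 ± 0.16 on 6. Lamb3, a beta chain of epithelial laminin, was scarce, at 38 to 83 counts per library, or 1.91, 1.34 and 1.53 CPM against 1.22, 0.925 and 1.39 CPM. The groups overlapped for Lamb3, and its change was -0.27 ± 0.29 (adjusted p = 0.729) and -0.41 ± 0.26. Lama4 and Lamb2 lay between 0.166 and 0.269 CPM per kilobase in either group and were not called. Lama3 had 2 to 37 counts per library.

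Summed over chains, the alpha chains came to 29.8 ± 0.833 CPM under the control gRNA against 29.7 ± 2.03 CPM under the JunD gRNA, and the beta chains to 11.4 ± 1.73 against 11.7 ± 0.875 CPM (SD, n = 3 each). Per kilobase Lamc1 alone, at 7.2 and 5.6, was above the alpha sum of 2.67 and 2.65 and the beta sum of 1.29 and 1.3. These sums are descriptions and carry no test.

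**Figure D3:**
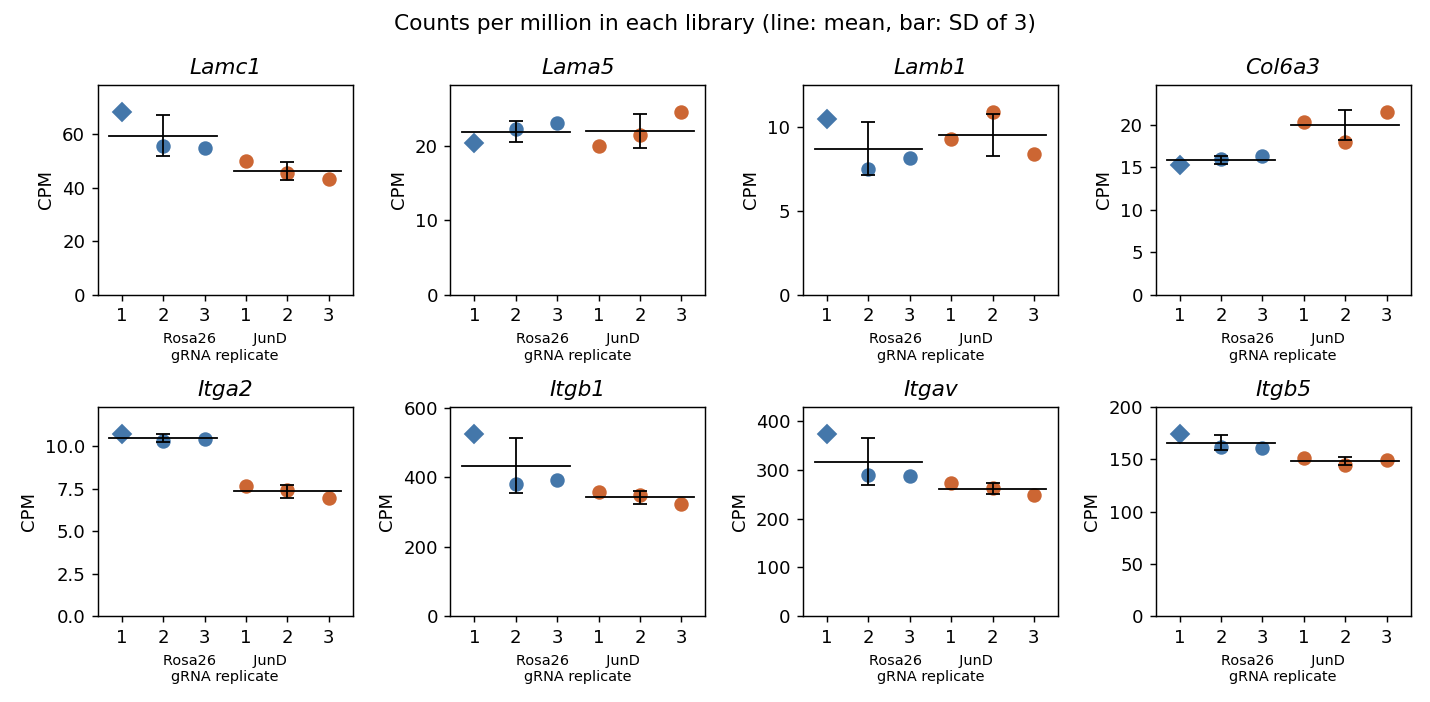
CPM in each library for 8 genes, with the mean (line) and SD (bar) of the 3 libraries of each gRNA. Diamonds are Rosa26 gRNA replicate 1. The groups do not overlap for Itga2, Lamc1, Itgb1, Itgav, Itgb5 and Col6a3, and they overlap for Lama5 and Lamb1. Replicate 1 lies beside its replicates for Itga2 and above them for Lamc1, Itgb1 and Itgav.

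On counts not corrected for GC and length, integrin transcripts lay mostly on the low side with the JunD gRNA, by small amounts. Of 19 integrins tested on 5 libraries, 2 fell, Itga2 and Itgb1 (10.5%), where 2.86% of all genes were called and 1.4% were called lower. A log2 fold change below 0 was found for 16 (84.2%, median -0.14), against 50.8% of all genes. On 6 libraries 15 of 17 lay below 0 (88.2%, median -0.21), against 51.1% of all genes. An unadjusted p under 0.05 was found for 6 (35.3%), all of them lower, against 11.9% of all genes in either direction. None passed the adjustment. In 8 of the 19 every JunD gRNA library lay below the Rosa26 gRNA libraries of the 5 and in none above. These 8 were 42.1% of the integrins, and 17.3% of all genes were apart in that direction. Over all 6 libraries it was 6 of 17, or 35.3%, against 12.8% of all genes. All these shares are without the GC and length correction. With it, the 5-library falls of Itgb1, Itga2 and Itgav were smaller and Itgb8 turned above 0. The fall of Itgb5 was larger and Itga3 turned below 0. The sum of the 25 integrins was 1379, 1098 and 1109 CPM with the Rosa26 gRNA and 1041, 1011 and 972 CPM with the JunD gRNA.

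Itga2 (ENSMUSG00000015533.9, chromosome 13, 114833081 to 114932100, minus strand) encodes the alpha 2 chain, which with beta 1 forms a receptor for collagen and, in some cells, laminin. It read 10.7, 10.3 and 10.4 CPM with the Rosa26 gRNA and 7.65, 7.43 and 6.93 CPM with the JunD gRNA, so the groups were apart and replicate 1 matched its replicates. Itga2 fell by 0.49 ± 0.11 (log2, SE, adjusted p = 0.0128, 5 libraries), and its value over 6 was -0.49 ± 0.1 (adjusted p = 0.417). With the GC and length correction Itga2 was at -0.39 on 5 libraries (adjusted p = 0.0382) and -0.3 on 6 (adjusted p = 0.389). Itga2 lost its call in 3 of the alternative settings on 5 libraries and kept it in 12, with values from -0.52 to -0.39. Its level was modest, 1.25 CPM per kilobase over all libraries, or 51.0% in the order of protein-coding genes. The other collagen-binding alpha chains were Itga10, Itga1 and Itga11, and none was called. Itga1, the next protein-coding gene beyond the 5′ end of Itga2, at 20995 bases, had 0.0966 ± 0.0137 and 0.089 ± 0.0263 CPM per kilobase (SD, n = 3 each) and a log2 fold change of 0.0 ± 0.27. Itga10, chosen after its values were seen, read 4.93, 7.24 and 8.24 CPM against 5.96, 5.89 and 6.79 CPM, with the lowest value in replicate 1 of the Rosa26 gRNA. Another gene model, Gm42957, shares 33.5% of the exon bases of Itga10 on the same strand, so its counts are uncertain.

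Itgb1 (ENSMUSG00000025809.15, chromosome 8, 128685654 to 128733200, plus strand), the beta chain of the collagen and laminin receptors, was the highest of the 79 genes per length. It read 524, 381 and 393 CPM with the Rosa26 gRNA and 357, 349 and 322 CPM with the JunD gRNA. The groups did not overlap, and the Rosa26 gRNA mean was 433 ± 79.2 CPM (SD, n = 3) with replicate 1 and 387 ± 8.16 (n = 2) without it. Itgb1 fell by 0.17 ± 0.04 (adjusted p = 0.0275) on 5 libraries, and its value was -0.32 ± 0.11 (adjusted p = 0.417) on 6. With counts corrected for GC content and transcript length the 5-library value was -0.11 (adjusted p = 0.0713), which is no longer a call. Across the alternative settings on 5 libraries, the call of Itgb1 was lost in 5 and kept in 10. Per length, Itgb1 was above the sum of all 17 alpha chains, 106 ± 19.4 against 60.0 ± 5.07 with the Rosa26 gRNA and 84.0 ± 4.5 against 53.4 ± 1.47 CPM per kilobase with the JunD gRNA (SD, n = 3 each).

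Itgav and Itgb5 form the vitronectin receptor alpha v beta 5, and both lay lower with the JunD gRNA without passing the test. Itgav read 373, 289 and 288 CPM against 272, 263 and 249 CPM. The groups were apart, and the change was -0.14 ± 0.04 on 5 libraries (adjusted p = 0.0737) and -0.26 ± 0.1 on 6. After the GC and length correction it was -0.04 on both. Itgb5 read 174, 162 and 161 CPM against 151, 144 and 149 CPM, and its change was -0.12 ± 0.04 (adjusted p = 0.133) and -0.15 ± 0.06. With the same correction the value of Itgb5 was -0.17 on 5 libraries (adjusted p = 0.0156), past the threshold. Itga5, the fibronectin receptor chain, and Itgb3 and Itgb6, other partners of alpha v, were under 0.1 CPM per kilobase and were not tested.

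The laminin-binding alpha chains Itga3 and Itga6 had higher levels per length than Itga2 and were not called. Itga3 read 71.5, 83.9 and 81.9 CPM against 85.5, 81.5 and 86.1 CPM, and its change was 0.03 ± 0.05 on 5 libraries and 0.11 ± 0.08 on 6. Itga6, chosen after its values were seen, was 105, 79.8 and 81.7 CPM against 81.4, 78.2 and 74.8 CPM, with a change of -0.04 ± 0.05 and -0.17 ± 0.1. Replicate 1 was thus the lowest Rosa26 gRNA library for Itga3 and the highest for Itga6. Their ratio in it was 1.07, against 1.66 and 1.59 in its replicates and 1.65 to 1.82 in the JunD gRNA libraries. Itga7, chosen after its values were seen, read 1.43, 1.62 and 1.4 CPM against 1.17, 0.901 and 0.484 CPM, from 81 counts or fewer. Its groups did not overlap, and its change of -0.83 ± 0.34 was not called (adjusted p = 0.21).

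Itga4 and Itgb8, also chosen after their values were seen, also read highest in replicate 1 of the Rosa26 gRNA. Itga4, a chain known from leukocytes that binds VCAM-1 and fibronectin, read 37.3, 25.6 and 25.2 CPM against 22.9, 23.5 and 19.9 CPM, and its change was -0.2 ± 0.08 on 5 libraries (adjusted p = 0.182) and -0.39 ± 0.15 on 6. Part of its exon sequence, 8.04%, lies opposite Cerkl, and whether the counting used strand is not stated, so the reads of both genes may be mixed. Itgb8, which with alpha v binds latent TGF-beta, read 64.6, 42.9 and 45.4 CPM against 43.9, 43.0 and 43.2 CPM. Its change was -0.02 ± 0.06 and -0.21 ± 0.14, and turned to 0.11 and 0.09 with the GC and length correction. Some chains were present while the known partner was scarce. Itgal, the alpha chain of LFA-1, read 5.81, 7.98 and 8.38 CPM against 6.7, 8.5 and 7.29 CPM, with overlap and a change of -0.12 ± 0.12, while its partner Itgb2 had at most 18 counts. Itgb4, which pairs with alpha 6 in hemidesmosomes, had at most 29 counts, and its change was -0.3 ± 0.5. Itgal, Itgb2 and Itgb4 were likewise chosen after their values were seen. The leukocyte list of 8 markers summed to 3.89 to 5.08 CPM with the Rosa26 gRNA and 2.85 to 3.52 CPM with the JunD gRNA, mostly Cd68, with Adgre1 and Cd3e at 0 in every library and 5 of 8 under 10 counts. Its part in the integrin values was not tested.

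The collagen family was dominated by Col27a1, a fibrillar collagen known from cartilage, which gave 69.0% of all collagen CPM. Col27a1 read 759, 840 and 883 CPM with the Rosa26 gRNA and 815, 781 and 863 CPM with the JunD gRNA. The groups overlapped, and the change was -0.07 ± 0.04 on 5 libraries (adjusted p = 0.453) and 0.0 ± 0.08 on 6. The summed collagens were 1196 ± 58.9 against 1192 ± 39.2 CPM (SD, n = 3 each). Of 31 collagens tested on 5 libraries 1 rose (3.23%), near the 2.86% of all genes that were called. Below 0 lay 20 (64.5%, median -0.07), against 50.8% of all genes. On 6 libraries 15 of 29 lay below 0, or 51.7%, with a median of -0.01, against 51.1% of all genes.

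Col6a3 (ENSMUSG00000048126.16, chromosome 1, 90765923 to 90843971, minus strand), a large chain of the type VI microfibril, read 15.3, 16 and 16.3 CPM with the Rosa26 gRNA and 20.4, 18 and 21.5 CPM with the JunD gRNA. All JunD gRNA libraries lay above all Rosa26 gRNA libraries. Col6a3 rose by 0.32 ± 0.09 (log2, SE, adjusted p = 0.0464, 5 libraries), close to the threshold, and its value over 6 was 0.35 ± 0.1 (adjusted p = 0.417). With upper quartile normalization its adjusted p was 0.0551. Across the alternative settings on 5 libraries, its call was lost in 6 and kept in 9. Its classical partners were scarce, with Col6a1 at 14 counts or fewer and Col6a2 at 16 or fewer in any library. Col6a6, a related alpha chain of type VI, was the highest of the type, at 187, 158 and 160 CPM against 171, 172 and 159 CPM, and its change was 0.08 ± 0.04 (adjusted p = 0.424) and 0.01 ± 0.08. Col6a6 over Col6a3 in CPM per kilobase was 13.9 ± 1.82 with the Rosa26 gRNA and 11 ± 1.41 with the JunD gRNA (SD, n = 3). Col6a6 lies on chromosome 9 beside Col6a5 and Col6a4 in that order, with gaps of 27917 and 28810 bases. Those neighbours averaged 0.0191 and 0.0612 CPM per kilobase with the Rosa26 gRNA, against 18.4 for Col6a6.

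Col9a2, a fibril-associated chain of cartilage, read 32.9, 33.2 and 32.2 CPM against 34.6, 35.7 and 37.1 CPM. The groups were apart by a small margin, and the change of 0.14 ± 0.06 was not called (adjusted p = 0.296). Col18a1, the basement membrane collagen from which endostatin is cut, was at 4.83 ± 0.243 and 4.72 ± 0.118 CPM per kilobase (SD, n = 3), and its change was -0.07 ± 0.06 and -0.02 ± 0.08. The basement membrane pair Col4a1 and Col4a2 was low, at 0.825 and 0.128 CPM per kilobase with the Rosa26 gRNA and 0.751 and 0.133 with the JunD gRNA, and their 5′ ends overlap by 22 bases on opposite strands. Other collagens with a level of 1 or more were Col11a2, Col22a1, Col16a1, Col20a1, Col7a1 and Col8a1, and none was called on either fit. Col7a1, the anchoring fibril collagen, read 9.86, 14.3 and 14.8 CPM against 12.4, 14.6 and 14.3 CPM, and Col8a1, a network collagen, 10.1, 9.52 and 11.6 CPM against 9.23, 8.91 and 9.61 CPM, with overlap in both. The changes of Col7a1 and Col8a1, chosen after their values were seen, were -0.07 ± 0.09 and -0.18 ± 0.11 on 5 libraries. The main collagens of fibroblasts were low: Col1a1 was at 0.169 and 0.178 CPM per kilobase and Col1a2 at 0.136 and 0.101. Col1a2, at 36 to 107 counts, had a change of -0.66 ± 0.29 on 5 libraries (adjusted p = 0.242) and -0.41 ± 0.36 on 6.

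The position of Rosa26 gRNA replicate 1 differed by family and followed base composition. It lay above all other 5 libraries for 10 of 17 integrins and below for 3, and above for 5 and below for 12 of 29 collagens. In all it was outside the range of the others for 36 of 54 genes, 66.7%, against 71.1% of all genes. Over the 41 genes with a mean of at least 1 CPM, the Spearman correlation of transcript GC content with the log2 ratio of replicate 1 to its replicates was -0.704. For the log2 ratio of the JunD gRNA mean to Rosa26 gRNA replicates 2 and 3 it was -0.0838. Over the 54 genes tested on 6 libraries, the deviation of replicate 1 from the mean of the other 5 libraries, on the log2(CPM + 0.1) scale, followed GC content with a correlation of -0.546, and over all 17743 tested genes with -0.511. Over all genes Rosa26 gRNA replicates 2 and 3 (-0.189 and -0.246) and JunD gRNA replicate 3 (0.306) followed it too, each set against the rest of the 5 libraries without replicate 1. The 2 ratios describe genes that share the same libraries, with replicates 2 and 3 in each ratio. The AT-rich integrins stood high in replicate 1, by 0.44 for Itgb1 (44.8% GC), 0.37 for Itgav (43.5%) and 0.56 for Itga4 (41.1%) on the log2 scale. Itga2 (43.7%) differed by 0.05. The GC-rich Col1a1 and Col2a1 were low there, at -1.19 and -1.11. The 6-library values of Itgb1, Itgav, Itga4, Itga6, Itgb8 and Lamc1 include this library.

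**Figure D4:**
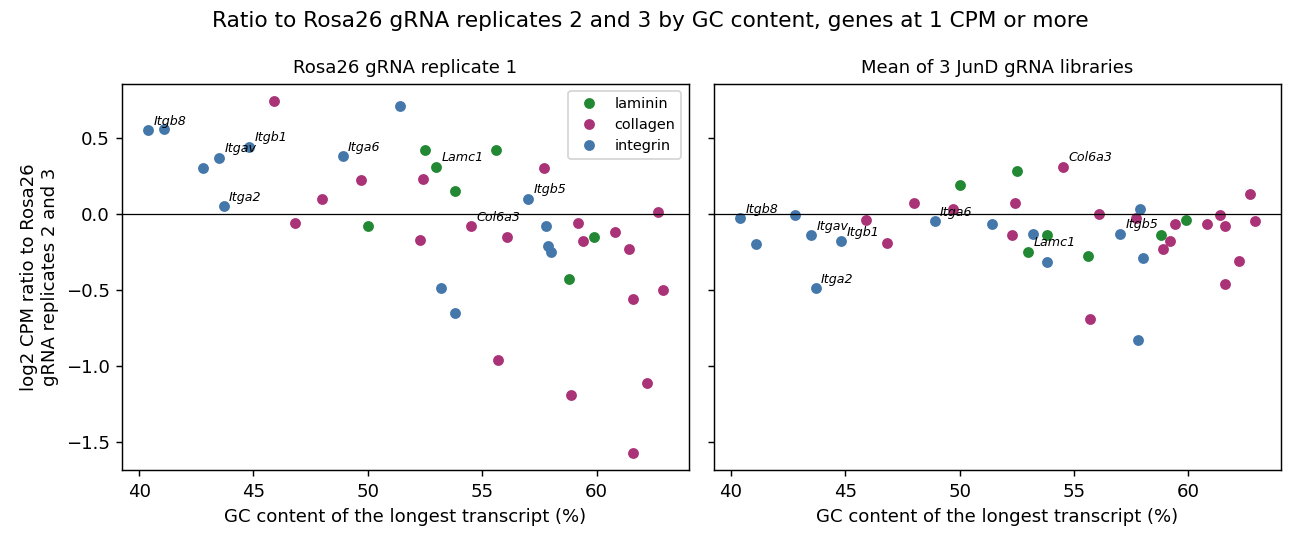
Log2 CPM ratio to the mean of Rosa26 gRNA replicates 2 and 3 against GC content of the longest transcript, for the 41 genes at 1 CPM or more, coloured by family. The left panel is Rosa26 gRNA replicate 1 and the right panel the mean of the JunD gRNA libraries. For these 41 genes, points fall from left to right in the first panel (rho -0.704) and show little trend in the second (rho -0.0838). In the second, Itga2 (-0.49) stands below 0, and Itga7 (-0.83) and Col1a2 (-0.69) stand lower still.

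Other genes of cell and matrix contact were looked up in 5 lists. On the 6 libraries edgeR called none of them in any list, while DESeq2 called Sdc4 (adjusted p = 0.000876), Plau (0.00626) and Plod2 (0.00856) among those named here. Without Rosa26 gRNA replicate 1, the matrix receptors that are not integrins gave the most calls, 4 of 12 tested, with a list median of 0.01, where 2.86% of all genes were called. Sdc4, a syndecan that acts beside integrins in focal adhesions, read 33.4, 33.8 and 32.2 CPM against 24.4, 22.5 and 24.7 CPM and fell by 0.46 ± 0.07 (adjusted p = 0.00037). Cd44, the hyaluronan receptor, fell by 0.33 ± 0.06 (adjusted p = 0.00529) and Sdc2 by 0.21 ± 0.06 (adjusted p = 0.047). The value of Sdc2 with the GC and length correction was -0.13 (adjusted p = 0.293), and its call was lost in 7 of 15 alternatives. Bcam, a receptor for laminins with the alpha 5 chain, read 187, 240.4 and 238 CPM against 268, 271 and 289 CPM and rose by 0.21 ± 0.04 (adjusted p = 0.00723). The levels of Bcam were lowest in replicate 1, and its groups did not overlap.

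In the list of collagen modification, folding and crosslinking, 1 of 22 tested genes was called, near the share over all genes, with a list median of -0.03. Plod2, the lysyl hydroxylase of collagen telopeptides, read 90.5, 66.7 and 69.6 CPM against 54.5, 50 and 48.7 CPM and fell by 0.41 ± 0.06 (adjusted p = 0.000163). Its value with replicate 1, its highest library, was -0.55 ± 0.11. Among 21 integrin adaptors and signalling genes 1 was called, also near that share, with a list median of 0.02. Bcar1, the p130Cas scaffold, read 77.4, 96.0 and 93.8 CPM against 111, 111 and 114 CPM and rose by 0.25 ± 0.05 (adjusted p = 0.00389). Of 18 matrix proteases and inhibitors 2 fell, where 2.86% of all genes were called and 1.4% were called lower. Their list median was -0.17. Plau, the urokinase protease, fell by 0.82 ± 0.17 (adjusted p = 0.00723) and Timp2, a metalloproteinase inhibitor, by 0.3 ± 0.07 (adjusted p = 0.0292). Of 13 other matrix glycoproteins 1 fell, beside the same 2.86% of all genes, with a list median of -0.09. It was Spp1, the RGD protein osteopontin, which also stands among the duct markers. Spp1 read 286, 372 and 379 CPM against 273, 272 and 244 CPM and fell by 0.51 ± 0.04 (adjusted p = 1.89e-07). Its value with replicate 1, its lowest Rosa26 gRNA library, was -0.38 ± 0.11 (adjusted p = 0.417).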

How the data were processed

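RNA was extracted with a column kit and sequenced from Illumina libraries, per the labels' protocols. The authors deposited raw counts per gene for each of 6 libraries. TopHat2, featureCounts and mm10 are named in the submitters' processing notes. Their versions, the annotation release and the strand setting are not given in these sources, so reads of overlapping or antisense genes may be mixed. Gene names matched 53274 of 53379 identifiers, and coordinates, exon lengths and GC content came from GENCODE M21 on GRCm38.

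JunD gRNA was compared with Rosa26 gRNA by edgeR 4.0.16 (R 4.3.3; TMM, filterByExpr, quasi-likelihood test, two-sided, group as the sole term), with Benjamini-Hochberg adjustment over all genes at 0.05, on 6 libraries and on 5. The SE is the absolute log2 fold change over the square root of F, and is approximate. Chi-square per degree of freedom between any 2 libraries was at least 3.27, above sampling noise. Simulated data with known changes were used to test the procedure. Named genes were Jund, Itga2, those called in either fit, in each family the 4 highest per length and the 2 with the smallest p in each fit, and up to 4 called genes of each list. Other members given with values were chosen after these were seen. The genes and lists were chosen with earlier results of these data known. Alternatives were other normalizations, filters, DESeq2 1.42.0, limma-voom (limma 3.58.1), a GC and length correction (splines with 5 degrees of freedom), a replicate block, a threshold of 0.01, and leaving out each library. No file was left out, and the result of 1 gene that the symbol rule takes in is not reported here.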

Additional observations from a re-analysis of the deposited data

How the results depend on the processing

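The number of the 79 genes called was 0 on the 6 libraries and stayed 0 with RLE, upper quartile or no normalization beyond totals, no or a stricter count filter, limma-voom and the GC and length correction, but was 1 with DESeq2. Leaving out 1 library gave 0 to 4, the 4 being without Rosa26 gRNA replicate 1. On the 5 libraries, where 4 were called, other normalizations, filters, tools and the GC and length correction gave 3 to 5, the threshold of 0.01 gave 0, and leaving out a further library gave 0 to 6, with 2 without JunD gRNA replicate 2. Over all genes the 5-library calls were 266 higher and 257 lower, 357 and 180 with the GC and length correction, and 197 and 302 with upper quartile normalization. Leaving out Rosa26 gRNA replicate 2 or 3 left 51 or 46 calls. Replicate numbers were not taken as pairs: deviations of same-numbered libraries correlated by 0.0526, -0.0357 and 0.0692. With the replicate block 0 genes were called on 6 libraries and 6 on 5 (over all genes 475 higher and 357 lower), and with block and GC correction together 0 and 2. Among genes not called, signs reversed for Lama5 on 6 libraries (-0.01 with the GC correction, -0.02 with block and GC, -0.04 without Rosa26 gRNA replicate 1, -0.07 without JunD gRNA replicate 3) and on 5 (0.02 with the block, -0.13 to 0.03 on leaving out a library). Col27a1 on 6 libraries was 0.0 with RLE, the stricter filter and DESeq2, -0.01 with totals or upper quartile, -0.06 with GC, -0.05 with block and GC, and -0.07 to 0.06 on leaving out a library (-0.04 without JunD gRNA replicate 3). Col6a6 on 6 was -0.01 with totals, 0.0 with upper quartile and -0.03 to 0.08 on leaving out a library (-0.01 without JunD gRNA replicate 1 or 2, -0.02 without Rosa26 gRNA replicate 3). Col9a2 was -0.03 with GC, with or without the block, and Col18a1 0.01 and 0.0 without Rosa26 gRNA replicates 2 and 3. Itgb8 was 0.09 with GC, with or without the block, on 6, and 0.11 with GC, 0.12 with block and GC and 0.03 without Rosa26 gRNA replicate 3 on 5. Lama1 on 5 was 0.01 with block and GC. Itga3 on 5 was -0.01 with GC and -0.02 with block and GC. The cause was not tested. Depth limits the 37 genes under 0.1 CPM per kilobase.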
